A study of Rattus norvegicus with 3 samples.

Results

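The cyclin-dependent kinase (CDK) inhibitors were examined in the rat osteosarcoma line COS1NR, the rat malignant fibrous histiocytoma (MFH) line MFH1NR and rat mesenchymal stem cells (MSCs). The 8 genes Cdkn1a, Cdkn1b, Cdkn1c, Cdkn2a, Cdkn2b, Cdkn2c, Cdkn2d and Cdkn3 were taken by name, not by their values, through the RefSeq accession that the array design gives each probe. A named probe was found for 7 of the 8 genes, with 12 probes in all, and these 7 genes stand among 10004 genes that were well above background on at least 1 array. Cdkn3 had no probe named in this way and is not analysed here. All 7 genes were well above background on all 3 arrays by their main probe, the one of highest mean log2 intensity.

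Each of the 3 cell types was measured on 1 Agilent whole-genome array in 1 colour, so there were no replicate cultures and no difference could be tested. COS1NR and MFH1NR are lines from tumors induced in F344 rats with the carcinogen that the labels call 4-HAQO. Each sarcoma is therefore represented by a single line. The MSCs came from femur marrow of F344 rats and were selected only by growth on plastic, so the culture may hold other marrow cells. Per the methods, the MSC medium held more serum than that of the sarcoma lines. No cell type received a treatment, and the labels give no age, sex or passage. The spread of spots quoted below lies within an array and covers neither cultures nor labeling. The COS1NR and MFH1NR arrays were on the same slide in the same scan, apart from the MSC array, so slide and cell type are confounded, and cannot be told apart, wherever MSCs are compared. Both sarcomas were compared with the same MSC array, and the 2 comparisons are not independent.

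CDKs drive the cell cycle when bound to cyclins, and the inhibitors hold them back. The Cip/Kip proteins p21 (Cdkn1a), p27 (Cdkn1b) and p57 (Cdkn1c) bind complexes of cyclins with CDKs, whereas the INK4 proteins p16 (Cdkn2a), p15 (Cdkn2b), p18 (Cdkn2c) and p19 (Cdkn2d) bind CDK4 and CDK6 and keep cyclin D away, which leaves the retinoblastoma protein unphosphorylated. In rodents the Cdkn2a locus also encodes p19ARF, a different protein that restrains the ubiquitin ligase Mdm2. Cdkn1c lies in an imprinted domain and is expressed from the maternal allele.

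The stretch of 250 bases before the RefSeq start of a gene is shown for 3 INK4 genes that were at least 2-fold above MSCs in 1 sarcoma or both, on the rat assembly GRCr8 and in the direction of transcription. For Cdkn2a (chr5:109107957-109108206, minus strand), Cdkn2b (chr5:109134856-109135105, minus strand) and Cdkn2d (chr8:28110810-28111059, minus strand) capitals mark the GC box GGGCGG on either strand.
Cdkn2a: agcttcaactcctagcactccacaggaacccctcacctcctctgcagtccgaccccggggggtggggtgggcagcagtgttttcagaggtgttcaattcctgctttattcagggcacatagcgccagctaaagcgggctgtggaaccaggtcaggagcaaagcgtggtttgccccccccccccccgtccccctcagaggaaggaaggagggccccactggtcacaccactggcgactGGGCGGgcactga
Cdkn2b: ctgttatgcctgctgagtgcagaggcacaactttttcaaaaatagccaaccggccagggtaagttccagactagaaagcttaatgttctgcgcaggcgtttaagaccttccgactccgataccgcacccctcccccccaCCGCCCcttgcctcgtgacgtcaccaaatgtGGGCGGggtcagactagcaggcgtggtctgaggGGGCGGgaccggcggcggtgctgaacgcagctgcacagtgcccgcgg
Cdkn2d: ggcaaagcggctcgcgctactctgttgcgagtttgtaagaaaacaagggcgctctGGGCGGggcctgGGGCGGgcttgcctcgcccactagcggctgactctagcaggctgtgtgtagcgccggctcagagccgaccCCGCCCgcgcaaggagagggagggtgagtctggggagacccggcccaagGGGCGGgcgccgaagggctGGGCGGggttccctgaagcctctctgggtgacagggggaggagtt
The GC box is a motif of the factor Sp1. A promoter entry was given for 6 of the 7 measured genes, all but Cdkn1c. Only 1 stretch was used for each gene. Whether that of Cdkn2a precedes the p16 or the p19ARF transcript was not resolved. The GC box was found in 5 of the 6, all but Cdkn1a, with 5 matches before Cdkn2d and 3 before Cdkn2b, while 30.5% of 33469 rat promoter stretches held it. The letters CCAAT on either strand were found only before Cdkn1b, with 2 matches, against 34.0% of all stretches. These stretches were 58.8 to 68.8% G and C, with a median of 51.2% over all promoters. A match is a description of letters and does not show that a factor binds there.

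**Figure D1:**
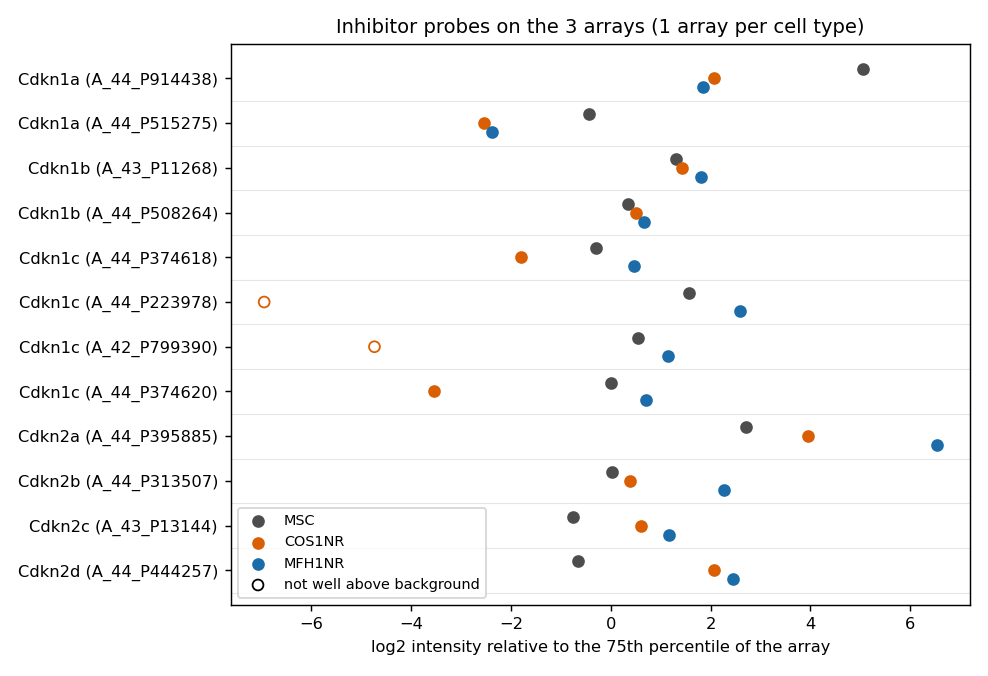
Level of the 12 inhibitor probes on the 3 arrays, as log2 intensity relative to the 75th percentile of the array (x axis), with 1 point per array and probe and open circles for spots not well above background. MSCs lie to the right of both sarcomas for Cdkn1a and to the left of both for Cdkn2a, Cdkn2c and Cdkn2d, and COS1NR stands apart for the 4 probes of Cdkn1c.

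The inhibitors did not move together. In both sarcomas p21 was lower and Cdkn2a, p18 and p19INK4d were higher than in MSCs, p15 was higher in MFH1NR, p27 differed little, and p57 was lower in COS1NR and not in MFH1NR. Intensities were taken relative to the 75th percentile of each array, which was 589, 774 and 994 for MSCs, COS1NR and MFH1NR in that order, and every ratio below is a ratio of these scaled levels. At least 2-fold higher than in MSCs were 3 of the 7 genes in COS1NR (20.0% of all genes) and 4 of 7 in MFH1NR (19.0% of all genes). At least 2-fold lower were 2 of 7 in COS1NR (19.4% of all genes) and 1 of 7 in MFH1NR (21.2% of all genes). The same direction in both sarcomas was seen for 3 genes that were higher (10.8% of all genes) and 1 that was lower (12.9% of all genes). With 7 genes these counts are a description of single arrays.

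**Figure D2:**
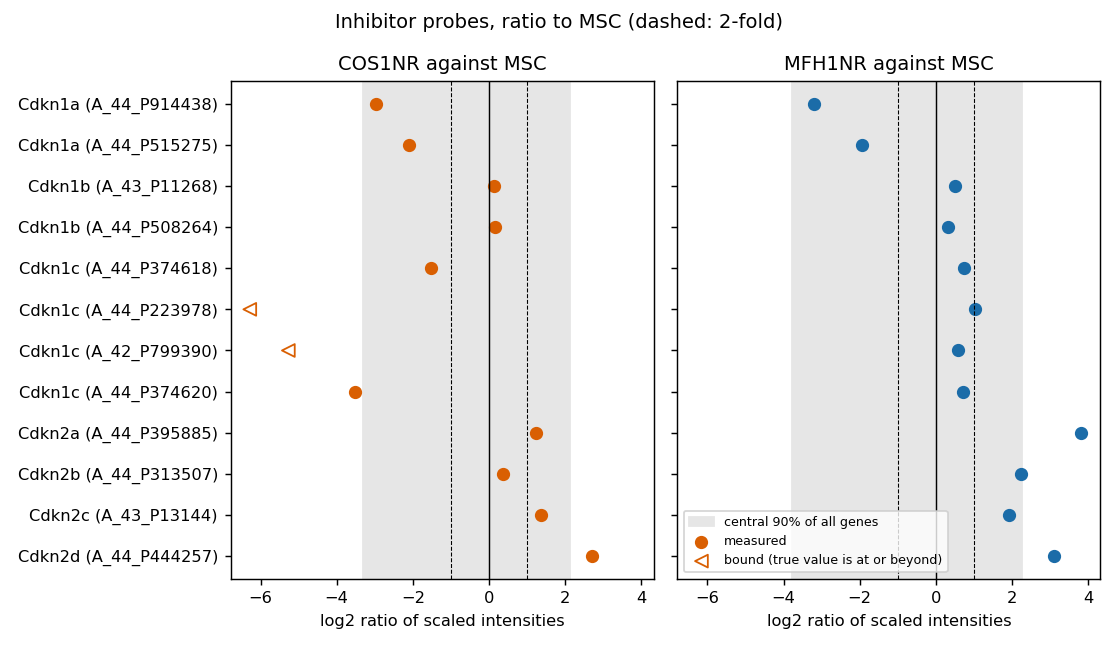
Log2 ratio of scaled intensity to MSCs (x axis) of each inhibitor probe in COS1NR (left) and MFH1NR (right), with the central 90% of all genes in grey and triangles for bounds. Cdkn2d lies right of the grey band in both sarcomas and Cdkn2a does so in MFH1NR, whereas both Cdkn1a probes lie inside it on the low side.

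Of the Cip/Kip genes, p21 was low in both sarcomas by both of its probes. Cdkn1a blocks CDK2 complexes and is known for halting the cycle after DNA damage. Its main probe (A_44_P914438), printed on 10 spots, gave an intensity of 19500.0 for MSCs, 3254 for COS1NR and 3557 for MFH1NR. MSCs were high and the sarcomas were low and close to each other. The ratio to MSCs was 0.127 in COS1NR (log2 -2.98, SE from spots 0.0153) and 0.108 in MFH1NR (log2 -3.21, SE from spots 0.0171). Among the spots used, outliers left out, intensities ran from 18826 to 20116 for MSCs, 3137 to 3391 for COS1NR and 3406 to 3737 for MFH1NR, so that MSCs lay far above both sarcomas. After scaling, MFH1NR spots (log2 1.76 to 1.91) lay below those of COS1NR (2.02 to 2.13), outliers included. The other probe (A_44_P515275) was dimmer, with intensities of 436, 134 and 191 in MSCs, COS1NR and MFH1NR. It gave ratios of 0.233 and 0.259, so both probes placed p21 lower in each sarcoma but differed in size. In rank, p21 was the 578th lowest of 9704 genes in COS1NR and the 629th lowest of 9817 in MFH1NR, with 5.95% and 6.40% of genes lower still. Between the sarcomas the ratio of MFH1NR to COS1NR was 0.851 by the main probe and 1.11 by the other, which gave no direction.

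**Figure D3:**
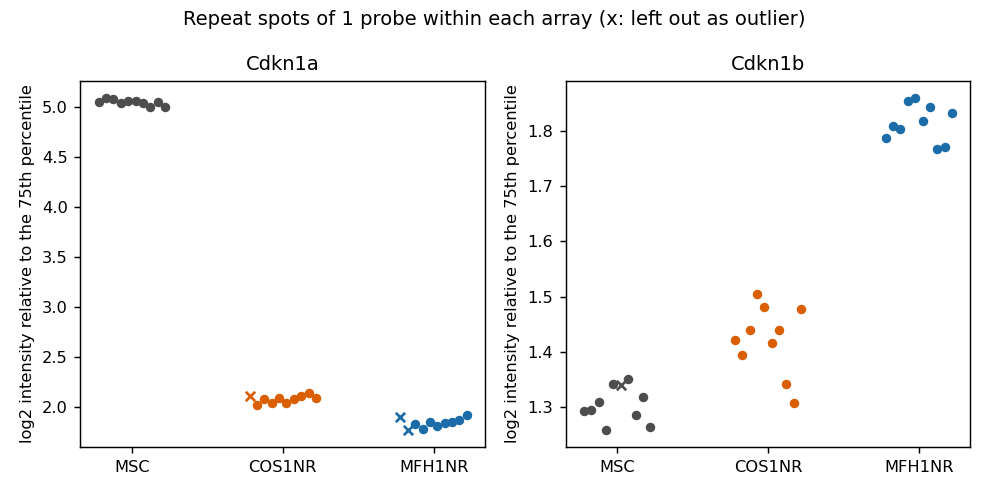
Repeat spots of the main probes of Cdkn1a (left) and Cdkn1b (right) on each array, as log2 intensity relative to the 75th percentile of the array (y axis, with a different range in each panel), with crosses for spots left out as outliers. The Cdkn1a spots of MSCs lie about 3 log2 units above those of the sarcomas, while the Cdkn1b spots of MSCs and COS1NR overlap.

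The level of p27 differed little. Cdkn1b restrains cyclin E with CDK2 in resting cells and is removed by the ubiquitin ligase subunit Skp2. Its main probe (A_43_P11268) gave an intensity of 1452 for MSCs, 2073 for COS1NR and 3496 for MFH1NR. After scaling, the spots of MSCs (log2 1.26 to 1.35) and COS1NR (1.31 to 1.51) overlapped and those of MFH1NR (1.77 to 1.86) lay above both. The ratio to MSCs was 1.09 in COS1NR (log2 0.12) and 1.43 in MFH1NR (log2 0.51), both under 2-fold. The other probe (A_44_P508264) read 747, 1095 and 1586 and gave ratios of 1.12 and 1.26. In COS1NR the gene lay near the middle of all genes, with 49.2% of genes higher.

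The sarcomas parted in p57. Cdkn1c binds the same complexes as p21 and p27 and is known for its part in leaving the cell cycle during development. It was covered by 4 probes, a pair for each of its transcript records. The main probe (A_44_P374618) gave an intensity of 482 for MSCs, 222 for COS1NR and 1371 for MFH1NR, with ratios to MSCs of 0.350 (log2 -1.51) and 1.68 (log2 0.75). A probe of the same record (A_44_P374620) read 587, 66.8 and 1614, with ratios of 0.0867 (log2 -3.53) and 1.63. COS1NR was the low array for both, and MFH1NR was the high one.
The probes of the other record were not well above background in COS1NR. A_44_P223978 read 1740.4 for MSCs, 6.28 for COS1NR and 6004 for MFH1NR, so that COS1NR was at least 77.8-fold lower and MFH1NR 2.04-fold higher than MSCs. A_42_P799390 read 863, 29.0 and 2185, which gave at least 38.6-fold lower in COS1NR and higher by 0.59 in log2 in MFH1NR. All 4 probes were lower in COS1NR and higher in MFH1NR than in MSCs, and in MFH1NR 1 of them reached 2-fold. Where a probe was dim, a bound is the bright scaled level over the higher of its own dim reading and the lowest well-above-background reading of the dim array.
MFH1NR was 4.81-fold above COS1NR by the main probe and at least 159-fold above it by A_44_P223978. These arrays share a slide. Against COS1NR, 3 of the 7 genes were at least 2-fold higher in MFH1NR (11.7% of all genes), namely Cdkn1c, Cdkn2a and Cdkn2b, and 0 were lower (14.2% of all genes). With scaling by spike-in probes 6 of the 7 were higher, against 33.7% of all genes, with Cdkn1b, Cdkn2c and Cdkn2d added.

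Of the 4 INK4 genes, Cdkn2d had the largest ratio in COS1NR and Cdkn2a the largest in MFH1NR. Each was read from 1 probe on 1 spot, so the only spread at hand is the 0.0717 in log2 that single-spot ratios have by the spots of other probes. For 1893 genes with several probes, the median difference between probes in the log2 ratio to MSCs was 0.28 for COS1NR and 0.31 for MFH1NR.
The Cdkn2a probe (A_44_P395885) gave an intensity of 3864 for MSCs, 11979 for COS1NR and 92000.2 for MFH1NR, which ranked MSCs, COS1NR and MFH1NR from low to high. The ratio to MSCs was 2.36 in COS1NR (log2 1.24) and 14.1 in MFH1NR (log2 3.82), and MFH1NR was 5.98-fold above COS1NR. In MFH1NR this was the 100th highest ratio of 9817 genes, with 1.01% of genes higher. Whether the probe read p16, p19ARF or both was not resolved, and cross-hybridization between the similar transcripts of Cdkn2a and Cdkn2b was not tested.
Cdkn2b encodes p15, which TGF-beta induces and which lies beside Cdkn2a on chromosome 5. Its probe (A_44_P313507) read 602 for MSCs, 1013 for COS1NR and 4792 for MFH1NR, so that MSCs and COS1NR were close and MFH1NR was high. The ratio was 1.28 in COS1NR (log2 0.36) and 4.71 in MFH1NR (log2 2.24). The sarcomas differed 3.68-fold.
Cdkn2c encodes p18, an inhibitor that E2F factors and the Menin complex are known to raise. Its probe (A_43_P13144) read 350.3, 1182 and 2240.4 in MSCs, COS1NR and MFH1NR. The ratios were 2.57 (log2 1.36) and 3.79 (log2 1.92), and the sarcomas differed by 1.47-fold.
Cdkn2d encodes p19INK4d, which varies through the cell cycle. Its probe (A_44_P444257) read 375 for MSCs, 3234 for COS1NR and 5416 for MFH1NR. The ratios were 6.57 (log2 2.72) and 8.57 (log2 3.10), the 243rd highest of 9704 genes in COS1NR and the 206th highest of 9817 in MFH1NR. The sarcomas differed by 1.30-fold.
Over the 4 INK4 genes the median log2 ratio was 1.30 in COS1NR and 2.67 in MFH1NR. For the 3 Cip/Kip genes it was -1.51 and 0.51, and over all genes it was 0.10 and 0.02. The -1.51 is the main probe of Cdkn1c, the mildest of its 4, and with the mean over all probes of a gene the Cip/Kip median in COS1NR was -2.54.

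**Figure D4:**
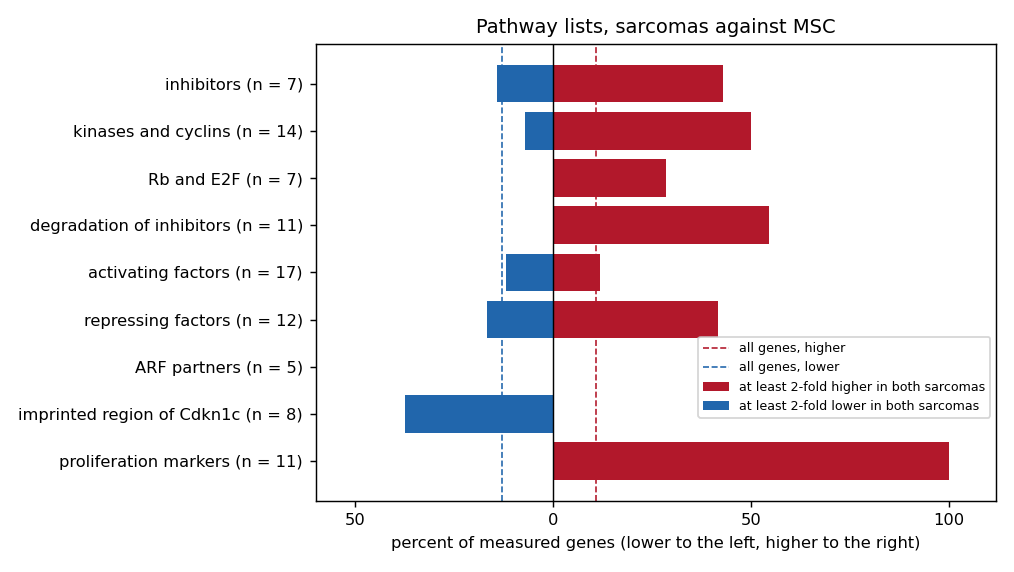
Percent of the measured genes of each list that were at least 2-fold higher (red, right) or lower (blue, left) in both sarcomas than in MSCs, with dashed lines for all genes (10.8% higher and 12.9% lower). All 11 proliferation genes lie to the right, and the imprinted region around Cdkn1c has genes on the left side alone.

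Cyclins E1, E2 and A2 and their kinase Cdk2 were higher in both sarcomas, and cyclin D2 was lower. Of 14 measured kinases and cyclins, 7 were at least 2-fold higher and 1 lower in both (10.8% and 12.9% of all genes). Other scalings of the arrays left these counts as they were. The median log2 ratio was 1.55 for COS1NR and 0.91 for MFH1NR. Cdk2, the partner of cyclins E and A, had ratios of 4.51 and 4.12 in COS1NR and MFH1NR. Cdk4, the kinase that INK4 proteins bind, had ratios of 1.96 and 1.06, and 2.40 and 1.24 by another probe. Ccne1 (cyclin E1) was 4.50 and 6.22 times the MSC level, Ccne2 (cyclin E2) 2.74 and 7.77 times, and Ccna2 (cyclin A2) 9.24 and 4.91 times. A second Ccne2 probe gave 1.92 and 22.5, under 2-fold in COS1NR. The D cyclins went different ways. Ccnd1 had ratios of 2.50 and 1.1 by its main probe and 3.74 and 2.09 by another. Ccnd3 had ratios of 1.17 and 1.46, while Ccnd2 read 4071 in MSCs and fell below it at least 182-fold in COS1NR and 14.1-fold in MFH1NR. Cdk6 and Cdk7 had no named probe.
At 2-fold, 2 of 7 measured Rb and E2F genes had higher levels in both sarcomas and 0 had lower ones (10.8% and 12.9% of all genes). With spike-in scaling 1 was higher (9.89% of all genes), and without scaling 3 were (22.9%). E2f1, which drives S-phase genes, had ratios of 7.26 and 5.50, and its partner Tfdp1 had 2.18 and 2.35. Other probes gave 4.67 and 3.28 for E2f1 and 1.44 and 1.48 for Tfdp1, which on that probe was under 2-fold in both. Rb1, the substrate of the kinases and named here after its values were seen, read 1161 for MSCs, 1304 for COS1NR and 344 for MFH1NR, so the ratios to MSCs were 0.855 and 0.176. Its other probe was dim on all arrays.

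Genes that remove the inhibitors were higher in both sarcomas for 6 of 11 measured at 2-fold (10.8% of all genes). They were lower for 0 (12.9% of all genes). With spike-in scaling 4 were higher (9.89% of all genes). Skp2, the subunit that recognizes p27, had ratios of 5.09 and 3.41, and a second probe gave 2.17 and 1.61. Cks1b, the cofactor of Skp2, had ratios of 4.89 and 3.02, Cdc20 had 3.72 and 4.52, and Pcna, which binds p21, had 2.63 and 3.09.
Of 17 measured factors known to raise inhibitor transcription, 2 were at least 2-fold higher and 2 lower in both sarcomas (10.8% and 12.9% of all genes). In COS1NR 3 were higher and 5 lower at 2-fold (20.0% and 19.4% of all genes). In MFH1NR 2 were higher and 5 lower (19.0% and 21.2% of all genes). The median log2 ratio was -0.55 in COS1NR and -0.36 in MFH1NR. With spike-in scaling 0 were higher and 3 lower in both (9.89% and 11.6% of all genes). The MFH1NR median turned to 0.13 with spike-in scaling and to 0.39 without scaling. Men1 (Menin) had ratios of 2.48 and 2.64 and Foxo4 had 2.44 and 2.49. Lower were Junb, an AP-1 subunit, with ratios of 0.136 and 0.0577, and Smad3, a TGF-beta effector, at least 8.64-fold and 10.8-fold lower.
Of 12 measured factors that repress inhibitor genes, 5 were at least 2-fold higher and 2 lower in both (10.8% and 12.9% of all genes). Without scaling and with median scaling 6 were higher and 1 lower, and with spike-in scaling 5 were higher and 1 lower. Of all genes, 22.9% were higher and 8.50% lower without scaling, 13.9% and 11.0% with median scaling, and 9.89% and 11.6% with spike-in scaling. Id1, an inhibitor of basic helix-loop-helix factors that restrains Cdkn2a, read 566, 9702 and 50908 and had ratios of 13.0 and 53.3. Cdc6 had ratios of 7.26 and 5.73, Ezh2, the methyltransferase of Polycomb complexes, 4.94 and 3.20, and Cbx8, a Polycomb reader, 3.82 and 9.15. The T-box repressor Tbx3 was lower, with a ratio of 0.308 in COS1NR and a level at least 297-fold below MSCs in MFH1NR. Bmi1 had no named probe.

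Mdm2, the ubiquitin ligase that p19ARF restrains, had ratios of 0.661 and 0.648 and passed 2-fold in neither sarcoma by this probe, while its other probe gave 0.364 and 0.431. By their main probes, none of the 5 measured partners of ARF was 2-fold apart in both. Of all genes, 10.8% were higher and 12.9% lower in both.

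Marker genes of other cells and of growth state differed between the arrays as well. The 11 measured proliferation genes all passed 2-fold upward in both sarcomas (10.8% of all genes). Their median log2 ratio was 2.61 in COS1NR and 2.70 in MFH1NR. Tpx2, a spindle assembly factor, had ratios of 7.30 and 9.23, and Birc5 (survivin) had 6.47 and 7.56. All 13 macrophage and leukocyte markers were well above background in MSCs, against 7 in COS1NR and 6 in MFH1NR. All 13 were at least 2-fold lower in both (12.9% of all genes). Their summed scaled level was 173 for MSCs, 9.60 for COS1NR and 4.74 for MFH1NR, and Ptprc, Itgam, Adgre1, Lyz2, C1qa and Cd163 were dim, that is not well above background, in both sarcomas. In a bulk culture, fewer cells of a type and less RNA per cell cannot be told apart. All 4 MSC surface markers were well above background in MSCs, against 2 in COS1NR and 3 in MFH1NR. For the osteosarcoma label, 4 of 6 measured osteoblast markers were well above background in COS1NR, while Sp7 (osterix), which defines the lineage, and Dmp1 were not, and Bglap and Ibsp lay 5.80-fold and 14.1-fold below MSCs. In MFH1NR 5 of the 6 were well above background, with Sp7 at 108, and Alpl and Spp1 were 2.07-fold and 5.21-fold above COS1NR. Ibsp went the other way, 12.2-fold below COS1NR, and Bglap was level, at 1.07 times COS1NR. Runx2 had no named probe. Sp7 was dim in MSCs too. Of the osteoclast markers, Acp5 lay 317-fold and 1136-fold below MSCs in COS1NR and MFH1NR and Ctsk 413-fold and 3.46-fold. Of 5 fibroblast markers 3 were at least 2-fold lower in both sarcomas by their main probes (12.9% of all genes). Among them was Col3a1, 265-fold and 19.6-fold lower. Col1a1 was not counted, with log2 ratios of -0.33 and -0.38, but its other probe gave -3.69 and -3.35. Of the 4 endothelial markers, Pecam1 and Tek were dim on all 3 arrays, whereas Kdr read 306, 78.8 and 80.8 and Cdh5 read 26.0 in MSCs, 48.3 in COS1NR and was dim in MFH1NR. Cd3e and Cd3g of T cells were dim on all 3 arrays. The part of the other marrow cells and of growth state in the inhibitor ratios was not tested.

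Each inhibitor was set beside the 3 genes nearest to it in the pair of log2 ratios to MSCs, out of the 7926 genes that every array measured well above background. These pairs rest on 3 arrays. For Cdkn1a they were Bdkrb1 (distance 0.014 in log2), Angpt4 (0.058) and C1qtnf12 (0.12). For Cdkn2a, they were Ddx25 (0.21), H3f4 (0.21) and Ptn (0.22), and for Cdkn2d Arhgap11a (0.022), Ppp1r35 (0.032) and Gemin4 (0.032). Mmp24 (0.024), Tle3 (0.15) and Rflnb (0.16) lay nearest to Cdkn1c. The nearest to Cdkn2b were Lin7c, Ubxn2b and Wt1, to Cdkn2c Ccdc71, Ark2n and H2ac25, and to Cdkn1b Mief1, Fam118b and Dlat. Within 0.5 in log2 lay 1073 genes for Cdkn1b and 235 for Cdkn2c, and from 7 (Cdkn2a) to 49 (Cdkn2d) for the others. The genes named for Cdkn1b and Cdkn2c thus stand in a crowd.

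On the chromosomes, a few neighbours could be measured. Cdkn2a and Cdkn2b are adjacent, and both were higher in MFH1NR, by 3.82 and 2.24 in log2. Next to Cdkn1a, the splicing factor gene Srsf3 had log2 ratios of 1.14 and 1.47, opposite in sign to Cdkn1a. Beside Cdkn1b, Gpr19 had log2 ratios of 2.28 and 1.75 and Apold1 0.03 and 4.21. Slc22a18, beside Cdkn1c, had log2 ratios of -2.62 and -0.65 and was, like Cdkn1c, higher in MFH1NR than in COS1NR, by 1.97 in log2. The imprinted region around Cdkn1c holds its own domain and the neighbouring one of H19 and Igf2. Of 8 measured genes listed for both domains, 3 were at least 2-fold lower in both sarcomas and 0 higher (12.9% and 10.8% of all genes). Without scaling and with spike-in scaling 2 were lower (8.50% and 11.6% of all genes). H19, a maternally expressed RNA, lay at least 273-fold below MSCs in COS1NR and 185-fold below them in MFH1NR, whereas Igf2, the growth factor gene, had ratios of 2.85 and 0.187. Cd81 lay at least 492-fold below MSCs in COS1NR and 304-fold below them in MFH1NR, and Osbpl5 had ratios of 0.219 and 0.357. Phlda2, a near neighbour of Cdkn1c, went the other way in MFH1NR, with readings of 19.9 in MSCs and 637 in MFH1NR (19.0-fold higher), and was dim in COS1NR, which lay at least 16.9-fold below MFH1NR.

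**Figure D5:**
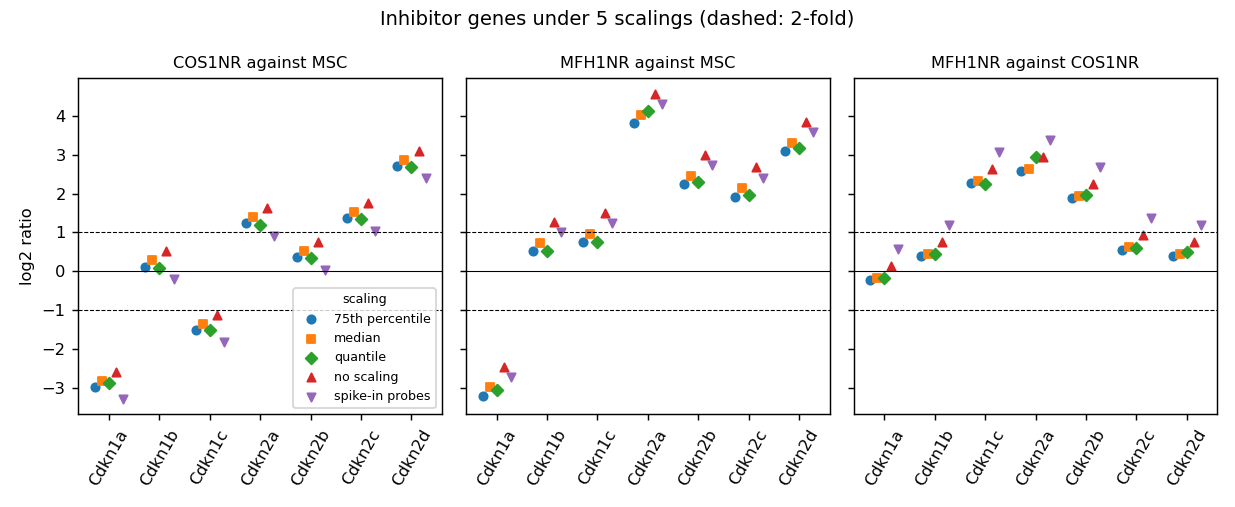
Log2 ratio (y axis) of the 7 inhibitor genes under 5 scalings of the arrays, for COS1NR and MFH1NR against MSCs and for MFH1NR against COS1NR, with dashed lines at 2-fold. Cdkn1a stays below the lower line and Cdkn2c and Cdkn2d above the upper line against MSCs under all 5, while Cdkn2a in COS1NR falls to 0.92 by spike-in probes.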

How the data were processed

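RNA of COS1NR, MFH1NR and MSCs was hybridized to 1 Agilent array each. Per the file headers, the deposited processed intensity of each spot came from the authors' run of Agilent Feature Extraction 10.5.1.1, with background subtracted and the array detrended, but not scaled between arrays. The submitters' processing notes name version 9.1. The deposited series table held the same intensities. Of 43379 spots that were not controls, 25899 in MSCs, 24551 in COS1NR and 25246 in MFH1NR were well above background and 0 were saturated. The lowest such reading was 17.9, 29.4 and 30.1. Outlier spots (187, 197 and 217) were left out and spots of a probe averaged in log2.

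Each array was scaled in log2 to its own 75th percentile. RefSeq accessions of the design were named through the GRCr8 gene table, which named 16806 of 20503 probes with an accession, for 13345 genes. Counts were made of genes 2-fold apart or more, with no test, since each cell type had 1 array, whose number limits the precision of every ratio. The inhibitors, the gene lists and the rule for named genes were chosen with earlier results of these data known. Named were every inhibitor probe, up to 4 genes of each list with the largest mean absolute log2 ratio among those 2-fold apart from MSCs in the same direction in both sarcomas, a preset group of kinases, cyclins and regulators (not all reported here), the 3 genes nearest in ratio and neighbouring genes. Methods and labels name different RNA kits. Alternatives were other scalings, spot and probe filters, probe choice, a floor, other fold thresholds and, added after the data were seen, normexp with an offset of 50. The counting was tested on simulated data. Tools were Python 3.11.15, numpy 2.4.6, pandas 2.3.3, matplotlib 3.10.9, limma 3.58.1 and R 4.3.3.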

Additional observations from a re-analysis of the deposited data

Results flagged for a closer look

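All 4 probes of Cdkn1c moved in opposite directions in the 2 sarcomas, lower than MSCs in COS1NR and higher in MFH1NR. In COS1NR the log2 ratio was -1.51 for A_44_P374618 and -3.53 for A_44_P374620, and the bounds were -6.28 for A_44_P223978 and -5.27 for A_42_P799390. In MFH1NR the same probes had log2 ratios of 0.75, 0.70, 1.03 and 0.59. The difference between the sarcomas was not tested, since each was measured on 1 array, and the probes of 1 gene are not replicates.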

How the results depend on the processing

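Of 120 counts of inhibitors past the fold threshold under 15 alternatives, 116 stayed within 1.5 times the count given. With counts this small, that range takes in changes. Inhibitors higher in MFH1NR than in MSCs rose from 4 to 6 without scaling (40.6% of all genes) and with spike-in scaling (32.0%). The series table held the same intensities, and all 7 main probes were well above background on every array. Neither that table nor the background filters could move an inhibitor count. With a 3-fold threshold 1 inhibitor was higher and 1 lower in COS1NR than in MSCs (9.47% and 12.7% of all genes). In both sarcomas 1 was higher (4.56% of all genes). With scaling by 7 spike-in probes, 6 were higher in MFH1NR than in COS1NR, a setting under which 33.7% of all genes were higher and 6.59% lower. Spike-in scaling moved the median log2 ratio of all genes from 0.10 to -0.21 in COS1NR and from 0.02 to 0.51 in MFH1NR, and no scaling moved it to 0.49 and 0.77. Of 273 log2 ratios of single inhibitors under alternatives, 10 crossed 2-fold and 4 changed sign, all 4 of them under 2-fold. Cdkn2a in COS1NR fell to 0.92 with spike-in scaling, which is 1.13 above the median of all genes, and Cdkn1c in MFH1NR rose to 1.51 without scaling, 1.24 with spike-in scaling, 1.03 with a floor and 1.18 with normexp. Cdkn1c in COS1NR went from -1.51 to -4.71 with the mean over probes, -5.27 with the dimmest probe, -6.28 with the floor and -4.96 with normexp, and in MFH1NR over COS1NR it went from 2.27 to 5.48, 5.85, 7.31 and 6.14 in the same order. Cdkn1b in MFH1NR rose to 1.27 without scaling and 1.0 with spike-in scaling, which is 0.50 above the median of all genes in both. Cdkn1a between the sarcomas read 0.13 without scaling, 0.58 with spike-in scaling and 0.15 with its dimmer probe. The planned normexp on mean spot intensities was not run, as the files used here give median spot intensities. No paired analysis was possible because each cell type had 1 array, and for the same reason no array could be left out.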
